A study of Mus musculus with 6 samples.

Results

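Core histones are the proteins around which DNA is wrapped in the nucleosome, and 28 probe sets of a mouse expression array measured their genes in embryonic stem cells that lacked 3 linker histones. These are all the probe sets of the deposited table whose platform annotation lists a gene for H2A, H2B, H3 or H4, for a variant of these, for Cenpa or for a macroH2A, with H1 genes left out. They are 28 of 12488 probe sets and list 46 of 8949 genes. The groups were null line 1 and null line 2, both with the linker histone genes H1f2 (H1c), H1f3 (H1d) and H1f4 (H1e) inactivated, and wild-type cells. Each line was measured on 2 arrays, numbered experiment 1 and experiment 2, with total RNA from exponentially growing cells. The labels give neither the strain, nor whether a null line is a single clone, nor whether a line's arrays stem from different cultures. The spread that the p-values rest on is that of these arrays and may be technical alone.

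Most core histone genes are replication-dependent. They lie in clusters, are expressed in S phase when new DNA needs histones, and make mRNAs that end in a stem-loop, bound by SLBP, instead of a poly(A) tail. Variants are encoded by separate genes, are mostly made throughout the cell cycle from polyadenylated mRNAs, and replace core histones at particular sites. H3.3 (H3f3a, H3f3b) and H2A.Z (H2az1, H2az2) mark active and regulatory regions, CENP-A (Cenpa) marks centromeres, and macroH2A lies on silenced chromatin such as the inactive X. H2A.X (H2ax) is phosphorylated around DNA breaks. Linker histones bind where DNA enters and leaves the nucleosome, and H1f2, H1f3 and H1f4 lie inside the large histone cluster of chromosome 13. The labels do not name the primer used for cDNA synthesis, and a primer of oligo(dT) would copy only RNA with a poly(A) tail.

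The 46 core histone genes are 16 of H2A, an H2A pseudogene, 8 of H2B, 12 of H3, 4 H2A variants (H2ax, H2az1, H2az2 and H2aj), 3 of H3.3, Macroh2a1 and Cenpa. No H4 gene is listed. Of these genes, 29 lie on chromosome 13 and 9 on chromosome 3. A single gene is listed for 19 probe sets and several genes for 9. The signal of a probe set listed with several genes cannot be assigned to 1 of them, and probe sets that share genes are not independent of each other. In the platform's naming, the endings _f_at and _s_at mark probes shared within a gene family or between transcripts, and _i_at and _r_at mark sets with fewer probes or relaxed selection rules.

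A filter on low values, a mean over all arrays of at least 20.9 intensity units, left 16 of the 28 probe sets among the 7453 tested. It kept 8 of the 9 variant probe sets and 8 of the 19 replication-dependent ones, namely 2 of 3 for H2A, 3 of 8 for H2B and 3 of 8 for H3. All 16 lay above the highest background control on each of the 6 arrays. The deposited values are MAS5 signals on a linear scale, and levels of different probe sets are not set against each other here.

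The highest of 19 background controls lay between 9.1 and 16.8 intensity units on the null arrays, and at 9.2 and 17.2 on the wild-type arrays. The targeted H1f2 measured 11.1 and 11.5 in line 1 and 13 and 14.4 in line 2, against 70.0 and 68.2 in wild-type cells (log2 change -2.27, limma adjusted p = 0.00119). The probe sets of H1f3 and H1f4 were at background on every array and check nothing about these genes. The Gapdh control, read as its 3' over its 5' probe set on the log2 scale for RNA integrity, lay between -0.26 and -0.16 on the null arrays and at -0.25 and -0.13 on the wild-type arrays. The Actb control, read in the same way, was 0.40 and 0.31 in line 1 and 0.21 and 0.25 in line 2. It was 0.28 and 0.26 in wild-type cells. All 14 embryonic stem cell markers examined, Pou5f1 and Nanog among them, were above background on all 6 arrays. Of these 1 passed, Fbxo15, an F-box protein gene of these cells, which rose (log2 change 1.05, limma adjusted p = 0.0449). Among the 14, 9 changes were positive and 5 negative, with a median of 0.15. An unadjusted limma p under 0.05 was found for 4, against 12.7% of all probe sets tested. Their summed signal lay between 9684 and 10593 on the null arrays and at 9067 and 9267 on the wild-type arrays.

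One question of the design is whether core histone genes change when linker histones are lost. A single core histone probe set passed the test in the null cells, and it was lower. Probe set 93833_s_at, listed with the H2B genes H2bc4, H2bc6 and H2bc8, measured 47.5 and 37.3 intensity units in line 1 and 51.1 and 50.2 in line 2, against 109.9 and 108.0 in wild-type cells. All 4 null arrays lay far below both wild-type arrays, and the groups did not overlap. The null arrays averaged 46.5 ± 6.34 (SD, n = 4) and the wild-type arrays 109 ± 1.34 (SD, n = 2), so the signal fell, with a log2 change of -1.20 and an SE of 0.13 (limma adjusted p = 0.0334), which is 2.29-fold lower on the log2(signal + 2.4) scale. The change was -1.32 ± 0.15 in line 1 (limma adjusted p = 0.065) and -1.07 ± 0.15 in line 2 (limma adjusted p = 0.0729), and the lines themselves differed by -0.25 ± 0.15 (line 1 minus line 2, limma adjusted p = 0.687). In bulk RNA, a lower signal from fewer expressing cells cannot be told apart from less RNA per cell. Across all probe sets 0.456% passed in the null average, and 0.161% of all probe sets passed as lower, so that 1 of 16 is the count to read against that background. The call was lost with no filter on low values (limma adjusted p = 0.185) and with the replicate number as a block (limma adjusted p = 0.0641), and it rested on most of the arrays. It held without the experiment 1 array of line 1 (limma adjusted p = 0.0463), and was lost without the experiment 2 array of line 1, either array of line 2 or either wild-type array (limma adjusted p between 0.0859 and 0.312), while the log2 change stayed between -1.28 and -1.11.

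The promoters of H2bc6 and H2bc8, which are 2 of the 3 genes of this probe set, are shown with motifs known from H2B promoters; H2bc4 is named only. Beside them stands the promoter of H2bc22, an H2B gene of the same chromosome whose own probe sets did not pass. RefSeq (GRCm38.p6) gave a window of 250 bases before and 50 after the start for H2bc6, which has 2 listed starts, and for H2bc8. Capitals mark matches on either strand to CCAAT, a box bound by NF-Y; to TATAAA, the TATA box; and to ATTTGCAT, the octamer, bound by OCT1 (Pou2f1) and OCT4 (Pou5f1).
H2bc6 upstream start, chr13:23621045-23621344, minus strand: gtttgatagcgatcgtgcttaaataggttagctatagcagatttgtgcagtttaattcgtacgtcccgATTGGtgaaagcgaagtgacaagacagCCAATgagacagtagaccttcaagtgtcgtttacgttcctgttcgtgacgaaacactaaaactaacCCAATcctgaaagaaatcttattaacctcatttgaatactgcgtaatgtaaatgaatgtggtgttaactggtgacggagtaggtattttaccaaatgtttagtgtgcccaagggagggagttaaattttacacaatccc
H2bc6 downstream start, chr13:23585921-23586220, minus strand: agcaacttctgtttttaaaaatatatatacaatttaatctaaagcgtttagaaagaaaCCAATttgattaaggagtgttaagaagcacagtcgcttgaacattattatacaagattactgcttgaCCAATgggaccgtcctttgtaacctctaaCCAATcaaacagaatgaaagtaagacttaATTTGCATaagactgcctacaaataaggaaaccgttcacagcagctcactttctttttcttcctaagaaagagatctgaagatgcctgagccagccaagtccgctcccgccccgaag
H2bc8, chr13:23571150-23571449, plus strand: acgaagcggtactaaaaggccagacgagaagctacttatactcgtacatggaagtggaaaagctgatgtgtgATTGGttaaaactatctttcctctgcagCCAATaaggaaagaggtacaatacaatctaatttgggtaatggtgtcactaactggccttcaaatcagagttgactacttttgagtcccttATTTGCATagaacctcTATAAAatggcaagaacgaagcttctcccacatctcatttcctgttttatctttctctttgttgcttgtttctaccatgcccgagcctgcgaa
H2bc22, chr13:21787238-21787537, plus strand: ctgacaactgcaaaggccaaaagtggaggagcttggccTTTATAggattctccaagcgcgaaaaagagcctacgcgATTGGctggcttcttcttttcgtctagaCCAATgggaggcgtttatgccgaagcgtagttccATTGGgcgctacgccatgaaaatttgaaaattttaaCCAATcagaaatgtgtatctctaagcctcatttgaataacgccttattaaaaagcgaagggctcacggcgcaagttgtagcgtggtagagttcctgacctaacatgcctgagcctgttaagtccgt
The octamer stood at position -67 from the downstream start of H2bc6 and at -59 in H2bc8, where a TATA box followed at -43. The upstream window of H2bc6 held CCAAT boxes but no match to the other motifs. The octamer was not in the window of H2bc22, which held 4 CCAAT boxes and a TATAAA at -212, on the opposite strand and far from the start. Among all 32851 promoter windows 1.7% held the octamer, against 7 of 15 for H2B (46.7%), 7 of 18 for H2A (38.9%) and 0 of 10 for H3. CCAAT was in all 15 H2B, all 18 H2A and all 10 H3 windows, against 37.4% of all windows, and TATAAA in 46.7% of the H2B windows, against 13.6% of all. No match in these 4 windows overlapped another. A match is a run of letters, not a measured binding site.

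The genes of probe set 93833_s_at are neighbours of the inactivated ones. By the RefSeq gene order on chromosome 13, H2bc6 is next to H1f4 with no coding gene between them (0), H2bc4 is separated from H1f4 by 1 coding gene (H2ac6), and H2bc8 from H1f3 by 2 (H3c6 and H2ac8). This position is not particular to them. H3c6 and H2ac6 are next to H1f3 or H1f4 too, and H3c3 is next to H1f2, but these genes are listed only on probe sets shared by 8 to 14 genes. H2bc3, separated from H1f2 by 1 coding gene (H3c3), has a probe set of its own, which was at background on every array. H2bc22 lies 61 coding genes from H1f3. The part that position plays was not tested.

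**Figure D1:**
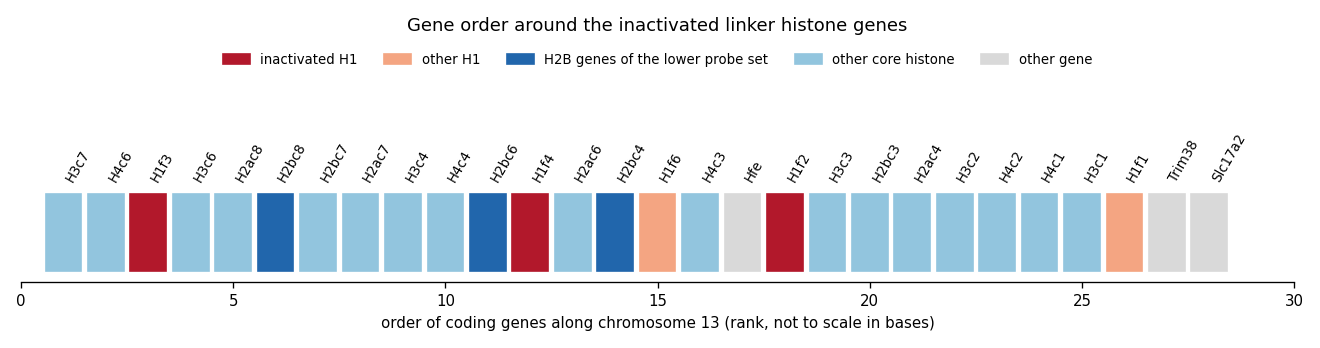
Order of coding genes on chromosome 13 around the inactivated linker histone genes, each box 1 gene and the horizontal axis its rank, not to scale in bases. H2bc6 adjoins H1f4, H2bc4 is separated from H1f4 by 1 gene, and H2bc8 is separated from H1f3 by 2 genes.

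None of the other H2B probe sets passed. H2bc22 has 3. Probe set 93834_at measured 42.4 and 43.2 in line 1, 38.1 and 40.5 in line 2, and 41.4 and 57.2 in wild-type cells, a log2 change of -0.24 with a 95% interval from -0.60 to 0.13. Its change rested on the wild-type arrays, at -0.46 without the experiment 1 array and -0.013 without the experiment 2 array. Probe set 162169_r_at measured 96.8 and 68.9 in line 1, 96.7 and 120.7 in line 2, and 95.9 and 106.3 in wild-type cells, a log2 change of -0.10 with a 95% interval from -0.53 to 0.33. In both, null and wild-type arrays overlapped (limma adjusted p = 0.567 and 0.851), and both intervals lay above that of 93833_s_at, which ran from -1.51 to -0.88. The third, 161394_f_at, was at background on every array, between 1.0 and 1.9 on the null arrays and at 1.7 and 3.8 on the wild-type arrays. H2bc1, the testis H2B gene, stayed below the filter at 17.2 to 22.5 on the null arrays and 17.9 and 18.7 on the wild-type arrays. H2bc21, in the chromosome 3 cluster, measured 11 and 13 in line 1 and 13.6 and 13 in line 2, against 7.2 and 6.8 in wild-type cells. Its null arrays all lay above the wild-type arrays, but 2 of the 6 arrays were above background, and it was not tested. H2bc18 (94638_at), also of chromosome 3, and H2bc3 (101654_at) were at background on every array. The null arrays of H2bc18, at 2.8 to 5.8, lay above the wild-type arrays, at 1.9 and 2.2, but at background no change can be read.

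The 3 tested H3 probe sets lay higher on all null arrays, though none passed. Probe set 93023_f_at is listed with 12 replication-dependent H3 genes (H3c1, H3c2, H3c3, H3c4, H3c6, H3c7, H3c8, H3c10, H3c11, H3c13, H3c14 and H3c15). It measured 192.2 and 221.5 in line 1 and 201.9 and 210.4 in line 2, against 120.3 and 121.1 in wild-type cells. Each line had all its arrays above both wild-type arrays, with means of 207 ± 12.5 (SD, n = 4) in null cells and 121 ± 0.566 (SD, n = 2) in wild-type cells. The log2 change was 0.76 ± 0.11 (SE, limma adjusted p = 0.0698), with 0.76 in each line, and it did not pass. It passed with a pseudocount of 16 (0.0407), with a stricter filter (0.0235), with a spread that follows the signal (0.016) and with the null arrays as 1 group (0.0448, all limma adjusted p). It did not pass with no filter (0.259), with the replicate number as a block (0.13), with quantile normalization (0.058) or with any single array left out (0.101 to 0.506, all limma adjusted p).

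A second probe set of the same 12 genes, 96416_f_at, measured 195.4 and 164.7 in line 1 and 170.0 and 237.5 in line 2, against 132.8 and 144.3 in wild-type cells. Its null arrays also lay above both wild-type arrays, with more spread between arrays of a line (log2 change 0.45 ± 0.17, SE, limma adjusted p = 0.352). H3c14, a gene of the chromosome 3 cluster, had 58.8 and 37.5 in line 1 and 46.4 and 56.0 in line 2, against 13.5 and 30.3 in wild-type cells, by 93068_r_at. The wild-type arrays differed widely from each other for this probe set, and its log2 change of 1.17 ± 0.32 did not pass (limma adjusted p = 0.229). The change was 0.65 without the experiment 1 array of wild type and 1.69 without the experiment 2 array. The annotation credits it to the same sequence record as the H2A probe set 93067_f_at. The probe sets of H2bc21 and H2ac21 share a record in the same way. Which gene such probe sets read could not be checked.

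The 5 other H3 probe sets fell below the filter. Probe set 93022_i_at, listed with 8 of the 12 genes and taken from the same record as 93023_f_at, measured between 14.3 and 22.7 on the null arrays and 16.9 and 19.7 on the wild-type arrays. It was above background on every array by a narrow margin and was not tested. Probe set 94756_at, listed with the same 8 genes, was at background on every array, as were all 3 probe sets of H3c8 (101783_i_at, 101784_f_at and 93024_at).

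**Figure D2:**
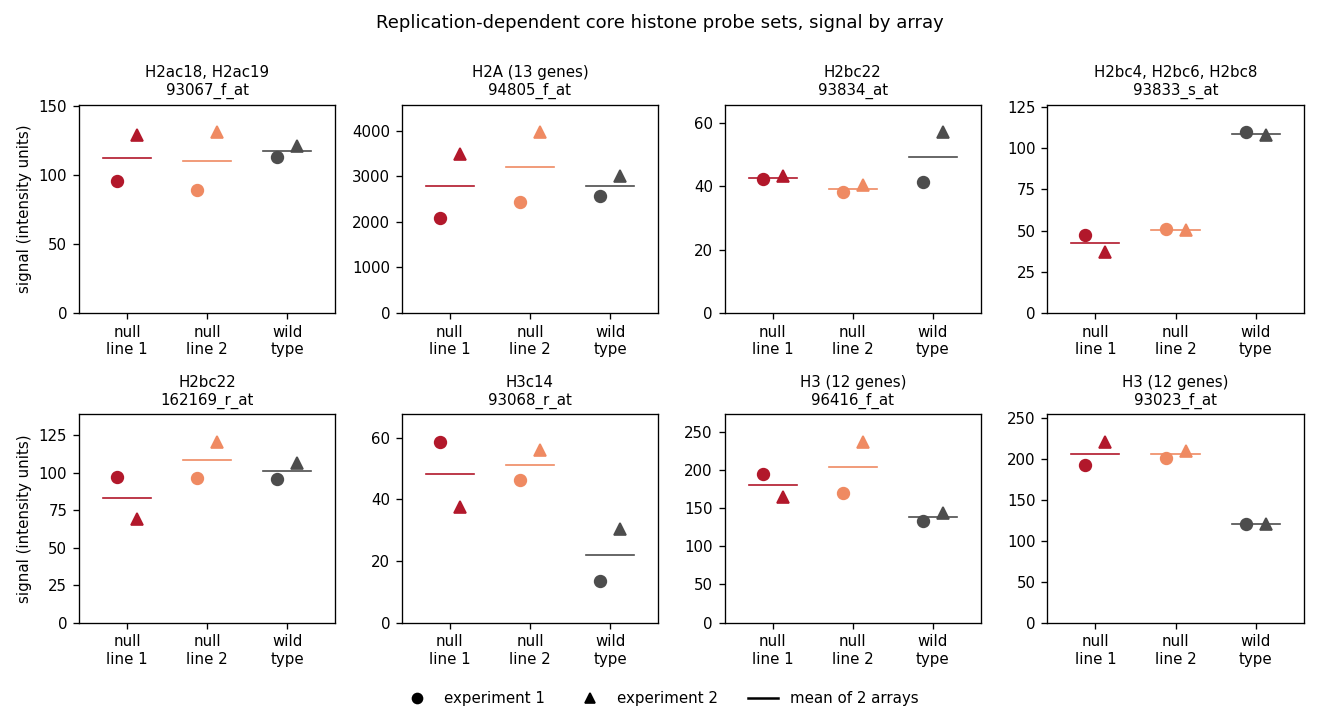
Signal of the 8 tested replication-dependent probe sets in intensity units, 1 panel each with its own vertical axis from 0. Points are arrays (circles experiment 1, triangles experiment 2) and lines the mean of 2 arrays, with null line 1, null line 2 and wild type from left to right. Null arrays lie below wild type for 93833_s_at and above it for 93023_f_at, 96416_f_at and 93068_r_at.

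The H2A probe sets overlapped between null and wild-type cells. Probe set 94805_f_at, listed with 12 genes of the H2ac series, H2aw and Trim17, measured 2089.6 and 3487.1 in line 1, 2446.8 and 3977.8 in line 2, and 2576.3 and 3004.5 in wild-type cells. Arrays of the same line lay further apart than the groups did, and the log2 change was 0.06 with a 95% interval from -0.61 to 0.73 (limma adjusted p = 0.956). Probe set 93067_f_at, listed with H2ac18, H2ac19 and a pseudogene, measured 95.7 and 128.6 in line 1, 88.7 and 131.0 in line 2, and 112.7 and 121.0 in wild-type cells, a log2 change of -0.09 with a 95% interval from -0.58 to 0.39 (limma adjusted p = 0.888). H2ac21 lay below the filter, with 11.1 to 21.8 on the null arrays and 20.8 and 18.2 on the wild-type arrays.

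For the 3 tested H2A variant genes no difference was detectable. H2az1 measured 1827.9 and 1661.6 in line 1, 1532.3 and 1509.6 in line 2, and 1682.2 and 1460.2 in wild-type cells. The log2 change was 0.05, with a 95% interval from -0.23 to 0.34 (limma adjusted p = 0.887). H2az2, the second H2A.Z gene, measured 653.9 and 634.4 in line 1, 607.1 and 518.0 in line 2, and 617.3 and 565.6 in wild-type cells, a change of 0.02 with an interval from -0.27 to 0.31. H2ax measured 918.6 and 979.4 in line 1, 891.2 and 811.8 in line 2, and 954.1 and 826.4 in wild-type cells, a change of 0.02 with an interval from -0.27 to 0.31 (limma adjusted p = 0.959 for H2az2 and 0.97 for H2ax). For each of the 3 genes line 1 had the highest mean and line 2 the lowest, but line 1 minus line 2 was no more than 0.20 on the log2 scale with limma adjusted p = 0.727, 0.727 and 0.777. H2aj was near background and not tested, with 12.2 to 19.1 on the null arrays and 12.7 and 16.2 on the wild-type arrays.

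The probe sets of H3.3 disagreed in direction. Both list H3f3a and H3f3b together with H3f3c and 3 predicted genes. Probe set 100708_at measured 1865.7 and 1952.8 in line 1 and 1837.4 and 1937.8 in line 2, against 1535.1 and 1488.9 in wild-type cells. All null arrays were above both wild-type arrays, and the log2 change was 0.33 ± 0.10 (SE, limma adjusted p = 0.289). Probe set 100380_at measured 1202.7 and 839.4 in line 1, 898.2 and 961.9 in line 2, and 1153.2 and 1173.8 in wild-type cells, with 1 null array above and 3 below the wild-type pair. Its log2 change was -0.27 ± 0.16 (SE, limma adjusted p = 0.55). No direction can therefore be given for H3.3 mRNA, and the annotation does not say which of the genes each probe set reads.

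Macroh2a1 has 2 probe sets. Probe set 97452_at measured 274.2 and 288.4 in line 1, 247.2 and 199.0 in line 2, and 282.5 and 244.1 in wild-type cells, a log2 change of -0.07 with a 95% interval from -0.40 to 0.26 (limma adjusted p = 0.866). Line 1 minus line 2 was 0.34 ± 0.16 (SE, limma adjusted p = 0.634). Probe set 160399_r_at measured 215.8 and 94.5 in line 1, 71.9 and 127.0 in line 2, and 155.3 and 178.8 in wild-type cells. Its arrays scattered so widely within the null lines that the log2 change of -0.50 had a 95% interval from -1.39 to 0.39. Cenpa measured 118.6 and 119.0 in line 1, 110.6 and 125.3 in line 2, and 102.9 and 114.9 in wild-type cells, a change of 0.12 with an interval from -0.16 to 0.40 (limma adjusted p = 0.718).

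**Figure D3:**
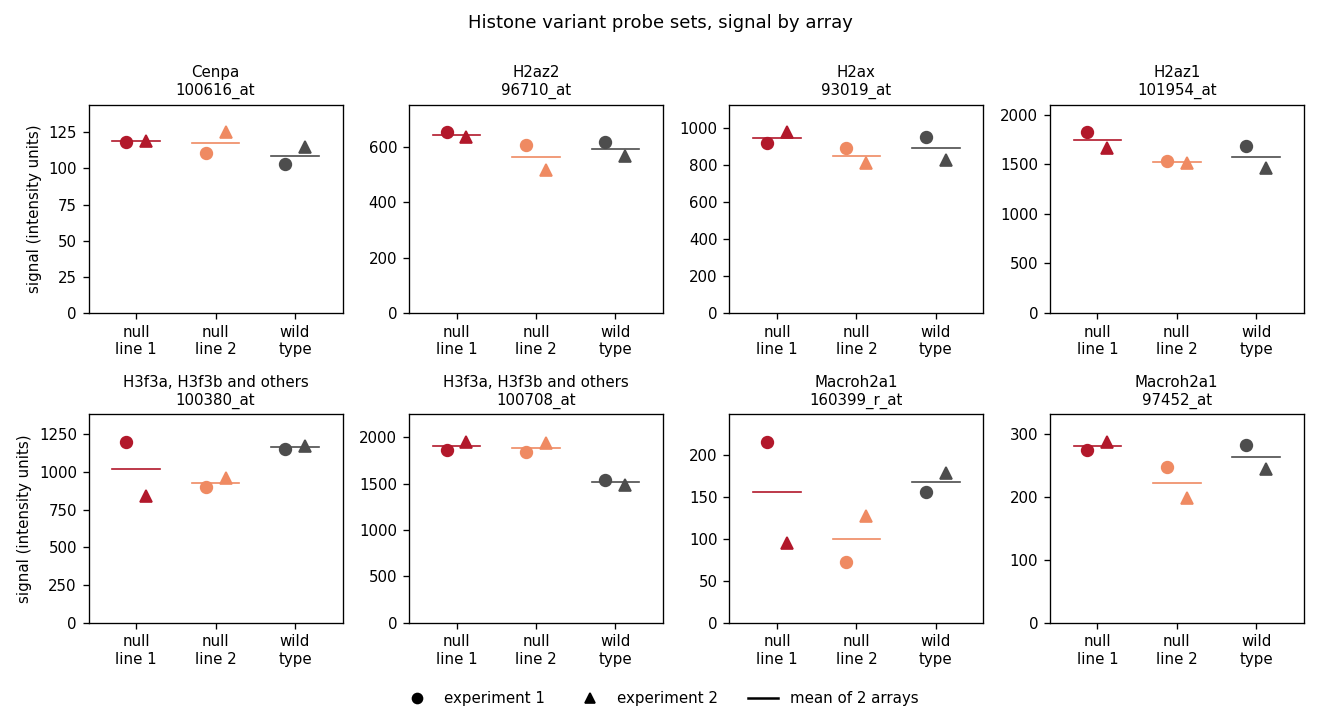
Signal of the 8 tested variant probe sets in intensity units, laid out as for the replication-dependent ones (circles experiment 1, triangles experiment 2, lines the mean of 2 arrays). Null arrays lie above both wild-type arrays for 100708_at and overlap them in the other 7 panels.

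Over the 16 tested probe sets, 9 log2 changes were positive and 7 negative, with a median of 0.02, beside a median of -0.015 and 47.3% positive among all 7453. The replication-dependent sets split into 4 positive and 4 negative and the variants into 5 and 3. Null and wild-type arrays did not overlap for 5 of the 16, 4 with the null arrays above (93023_f_at, 96416_f_at, 93068_r_at and 100708_at) and 1 with them below (93833_s_at). Among all probe sets tested 23% did not overlap, 11% above and 12% below. These same 5 probe sets had an unadjusted p under 0.05 in the null average, against 12.7% of all tested. Against wild type alone, none passed in line 1 or line 2 by limma's adjusted p, where 0.134% and 0.322% of all probe sets did; 4 and 5 of the 16 had an unadjusted p under 0.05, against 9.5% and 14.1%. Both lines were set against the same wild-type arrays, so these counts are not independent.

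Between the null lines, none of the 16 passed by limma's adjusted p, beside 0.0268% of all probe sets, and none had an unadjusted p under 0.05, beside 7.54%. The widest difference between the lines was 0.57 on the log2 scale, for the scattered Macroh2a1 probe set 160399_r_at, with a 95% interval from -0.46 to 1.60.

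**Figure D4:**
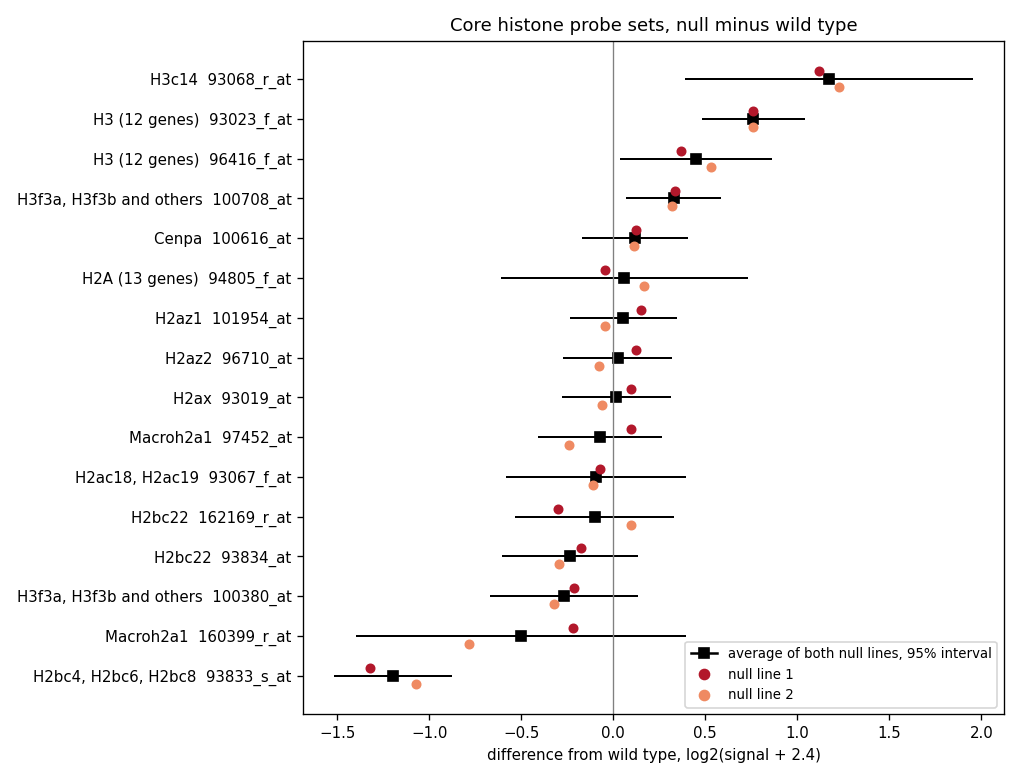
Log2 differences from wild type for the 16 tested probe sets, on the log2(signal + 2.4) scale. Squares and bars give the average of both null lines with its 95% interval, dark circles line 1 and light circles line 2. The interval of 93833_s_at lies below 0 and those of the 3 H3 probe sets and of 100708_at above 0, before adjustment for the number of probe sets tested.

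Experiment 1 and experiment 2 differed for some members in the same direction in all lines. The H2A probe set 94805_f_at was higher in experiment 2 by 0.74 on the log2 scale in line 1, 0.70 in line 2 and 0.22 in wild-type cells, and the H2A probe set 93067_f_at by 0.42, 0.55 and 0.10. In all, 5 of the 16 were higher in experiment 2 in every line (with 93023_f_at, 93834_at and Cenpa), against 14.6% of all probe sets tested. Lower in every line were 3 (H2az1, H2az2 and 93833_s_at), against 14%. These counts go by sign alone, and some of the differences were very small. They were 0.009 for 93023_f_at in wild-type cells and 0.005 for Cenpa in line 1. For 93833_s_at they were -0.024 in line 2 and -0.025 in wild-type cells. Null and wild-type arrays of 93833_s_at and 93023_f_at did not overlap, so their differences had to appear in each experiment. This split of the same arrays adds no support. Null arrays of 93833_s_at had 47.5 and 51.1 against 109.9 in experiment 1 and 37.3 and 50.2 against 108.0 in experiment 2. Those of 93023_f_at had 192.2 and 201.9 against 120.3 in experiment 1 and 221.5 and 210.4 against 121.1 in experiment 2. The labels do not say what distinguishes the experiments.

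**Figure D5:**
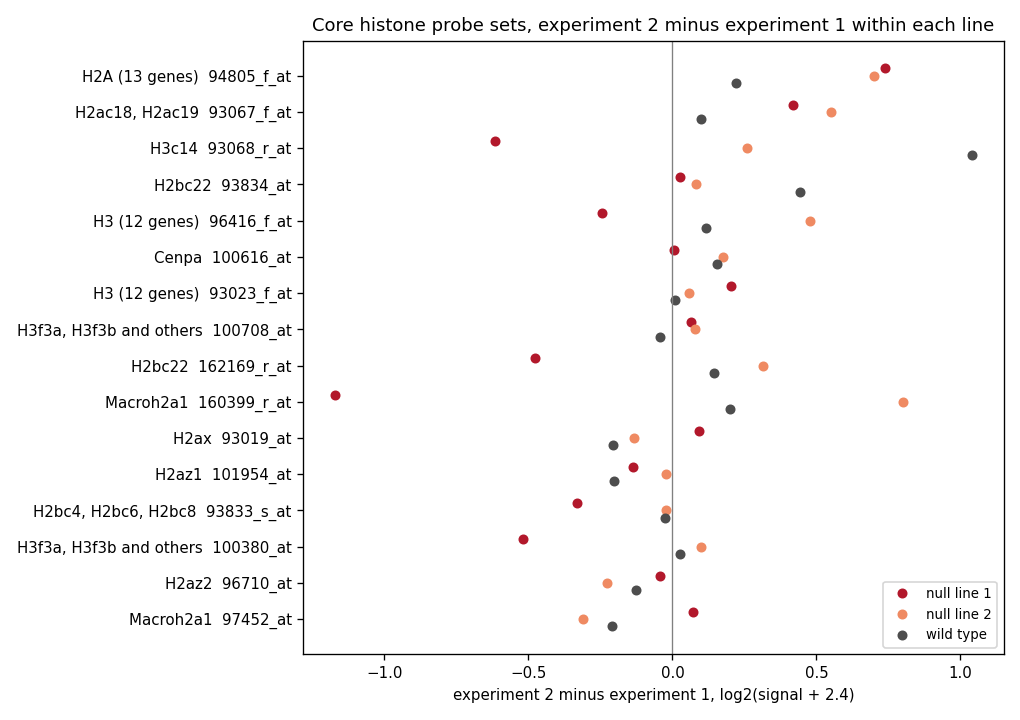
Experiment 2 minus experiment 1 on the log2(signal + 2.4) scale for the 16 tested probe sets, 1 point for each line. Both H2A probe sets lie to the right of 0 in all lines, and the points of 160399_r_at spread from -1.17 in line 1 to 0.80 in line 2.

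Genes that act on histone mRNA or on histones were measured beside the members. The counts of these and the following lists are to be read beside the shares of all probe sets tested. Of those, 0.456% passed by limma's adjusted p, 12.7% had an unadjusted p under 0.05 and 47.3% of the changes were positive. Of 15 genes of histone transcription and mRNA 3' end formation on the array, 14 were tested and none passed by limma's adjusted p, with 1 at an unadjusted p under 0.05; 11 changes were positive and 3 negative, with a median of 0.11. Cpsf3, the nuclease that cuts histone pre-mRNA, averaged 164 ± 19.3 in null cells (SD, n = 4) and 211 ± 14.4 in wild-type cells (SD, n = 2), a log2 change of -0.37 (limma adjusted p = 0.352). Cstf1 and Cstf2, cleavage factor subunits, had changes of 0.22 each, and Casp8ap2, a protein of histone locus bodies, one of 0.29 (limma adjusted p between 0.458 and 0.486). Of 31 histone chaperones and exchange factors tested, none passed and 3 had an unadjusted p under 0.05; 22 changes were positive and 9 negative, with a median of 0.08. Asf1b, a chaperone that hands H3 and H4 to replicating DNA, averaged 74.7 ± 10.3 in null cells (SD, n = 4) and 55.1 ± 0.566 in wild-type cells (SD, n = 2), a change of 0.41 (limma adjusted p = 0.285). The chaperone Anp32a had a change of 0.38, the import receptor Kpnb1 one of 0.34 and the H4 acetyltransferase Hat1 one of 0.31 (limma adjusted p between 0.285 and 0.449).

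Because replication-dependent histone mRNA is made in S phase, genes of DNA replication stand beside it. Of 34 tested, none passed and 3 had an unadjusted p under 0.05, against 12.7% of all probe sets tested. Of the changes 31 were positive and 3 negative, with a median of 0.12, beside 47.3% positive among all. The summed signal of the 35 on the array lay between 10755 and 11171 on the null arrays and at 10012 and 10036 on the wild-type arrays. Such a separation was not particular to these genes. For histone transcription and mRNA 3' end formation the null sums were 2548 to 2725 and the wild-type sums 2466 and 2500. For chaperones and exchange factors they were 18421 to 19958.5 and 18167 and 18333. The sum of the stem cell markers was higher on all null arrays too. Rrm1, a subunit of ribonucleotide reductase, had a change of 0.40, Rpa1, which binds single-stranded DNA, one of 0.36, and the helicase subunit Mcm7 and the nuclease Fen1 changes of 0.29 each (limma adjusted p between 0.27 and 0.396). The part of S phase genes in the H3 signals was not tested.

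Markers of other cells that such cultures can hold had lower summed signals on the null arrays, and in each list a pair of genes made most of that gap. The summed signal of 18 feeder fibroblast markers lay between 2346 and 2623 on the null arrays and at 3017 and 3128 on the wild-type arrays; 10 of the 18 were above background on every array. Of 10 tested none passed by limma's adjusted p, and 3 had an unadjusted p under 0.05, against 12.7% of all probe sets tested. In this list 8 changes were negative (median -0.21). The genes with the smallest p were Timp3, a metalloproteinase inhibitor (log2 change -0.66), the contractile genes Acta2 (-0.71) and Tagln (-0.36), and the transcription factor Twist2 (-0.40), with limma adjusted p between 0.103 and 0.410. Without Acta2 and Tagln, which were chosen for this after their values were seen, the sums overlapped, at 1050 to 1170 on the null arrays and 1144 and 1242 on the wild-type arrays. The collagens Col1a1 and Col1a2, with changes of 0.01 and 0.12, were the only 2 positive ones among the 10. The collagen Col5a1 had a change of -0.04, and Fn1, S100a4 and Fbln2 had changes of -0.25, -0.17 and -0.11.

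The summed signal of 18 markers of extraembryonic endoderm lay between 4652 and 5666 on the null arrays and at 6504 and 6911 on the wild-type arrays. Of 14 tested, 1 passed, Col4a2, a basement membrane collagen, which fell (log2 change -0.84, limma adjusted p = 0.0424), beside 0.456% of all probe sets. An unadjusted p under 0.05 was found for 5, against 12.7% of all, and 10 changes were negative and 4 positive (median -0.29). Next by p were the keratins Krt8 (-0.71) and Krt18 (-0.81) and the collagen Col4a1 (-0.70), with limma adjusted p between 0.0898 and 0.132. Without Krt8 and Krt18, also chosen after their values were seen, the sums overlapped, at 2978 to 3776 on the null arrays and 3399 and 3701 on the wild-type arrays. The lipid carrier gene Apoe, with a positive change of 0.20, made a large part of these remaining sums. It measured 1708.0 to 2460.8 on the null arrays and 1689.4 and 1776.7 on the wild-type arrays. The overlap therefore does not mean that the other markers were level. Of the endoderm factors, Gata4 had a change of -0.23, Sox17 one of 0.05 ± 0.25 (SE) and Sox7 one of 0.09 ± 0.36 (SE). Sox17 and Sox7 lay close to the filter of 20.9. Gata6 was below the filter, and Hnf4a and Foxa2 were at background on every array. Sparc, Dab2, Lamb1 and Lama1 had changes of -0.39, -0.37, -0.35 and -0.18, and Afp and Cubn changes of -0.002 and 0.08. The part of these markers in the lower signal of 93833_s_at was not tested.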

How the data were processed

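In all, 6 arrays were analysed, 2 for each of 3 cell lines. The deposited intensity values are linear MAS5 signals, per the submitters' processing notes, which name no version. The trimmed mean of every array, 2% of probe sets left out at each end, was 100.1, and this scaling was kept. Gene names come from the platform's annotation, with symbols updated by gene identifier through RefSeq (GRCm38.p6), which matched all 46 member genes.

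The 66 control probe sets were left out. Signals were tested as log2(signal + 2.4), the pseudocount being the 10th percentile of all values, for probe sets at or above the 40th percentile of the means over all arrays. A linear model with 1 mean for each line was fitted by limma 3.58.1 in R 4.3.3 (lmFit, eBayes; 3 residual and 3.2 prior degrees of freedom), adjusted by Benjamini-Hochberg over 7453 probe sets, at 0.05. Fold changes understate dim probe sets. By permutation alone, 2 arrays against 4 cannot give p below 0.0667. Background is the highest of 19 bacterial and yeast controls. On simulated data for the null average with 7453 probe sets, 66.3% of 2-fold and 93.4% of 4-fold changes were found, and 5.28% of calls were false. The number of changed probe sets was set in advance there, and the spreads were shuffled over probe sets. The shares found depend on both and need not hold for the members. With 2 arrays a line, their number limits the precision. Tables and figures were made in Python 3.11.15 with matplotlib 3.10.9.

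Named in full were members past the threshold, members at an unadjusted p under 0.05 in any contrast, the variants and up to 2 probe sets of each class by mean signal (a rule of choice, not a comparison of levels), with up to 4 genes of each list by smallest p. Other members are named with their values, except that some at background on every array are named without them. The arrays of H2bc21 and H2bc18, and Gata6, Hnf4a and Foxa2, were chosen after their values were seen. So were the tested feeder fibroblast and extraembryonic endoderm markers named beyond those 4 of each list. The members and lists were chosen with earlier results of these data known. Alternatives covered the pseudocount, filters, quantile normalization, a replicate block, a trended spread, the null arrays as 1 group and each array left out.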

Additional observations from a re-analysis of the deposited data

How the results depend on the processing

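For the null average, the number of core histone probe sets past the threshold was 1. It was 2 with a pseudocount of 16, a stricter filter (the 60th percentile), a spread that follows the signal or the null arrays as 1 group, 93023_f_at being added, and 0 without a filter, with more probe sets tested, or with the replicate block; leaving out 1 array gave 0 to 1. Among all probe sets the count was 34, and 54 with the pseudocount of 16 (29 higher, 25 lower, against 22 and 12), 8 without a filter (6 and 2), 66 with the stricter filter (28 and 38), 14 with the replicate block (12 and 2), 101 with the trended spread (48 and 53), and 7 to 13 with 1 array left out. In line 1 against wild type 0 members passed, and 1 with the pseudocount of 16, the stricter filter or quantile normalization, and 2 with the trended spread. In line 2 against wild type 0 passed, and 1 with the pseudocount of 16 and 2 with the stricter filter or the trended spread. Between the null lines 0 passed in every alternative run. The log2 change of 93833_s_at kept its sign in all 13 alternatives and passed in 6; it did not pass without a filter (limma adjusted p = 0.185) or with the replicate block (-1.20, limma adjusted p = 0.0641). The numbers were not taken as pairs, since the labels do not say what a shared experiment number means. Across all probe sets tested, arrays of the same number shared little. Their deviations from the line means correlated at 0.074, 0.054 and 0.095.

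Of the 16 members, 9 kept the sign of their change in every alternative that tested them. The other 7, none past the threshold in any alternative, turned in some. With quantile normalization the log2 changes of H2az1, H2ax and H2az2 were -0.0034, -0.0087 and -0.016. With 1 array left out they ranged from -0.047 to 0.16 for H2az1, -0.087 to 0.12 for H2ax, -0.038 to 0.087 for H2az2, -0.22 to 0.018 for 162169_r_at, -0.23 to 0.045 for 93067_f_at, -0.12 to 0.25 for 94805_f_at and -0.18 to 0.033 for 97452_at. The cause was not tested. Quantile normalization moved the median of all probe sets to 0.0038. Of the 28 members, 7 were at background on every array, where no change can be read.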
